A study of Homo sapiens with 8 samples.

Results

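The BCL2 family decides whether a cell keeps or loses the integrity of its mitochondrial outer membrane, and 10 of its genes were followed here among the 28265 genes counted by factory RNA-Seq in IMR90 cells. They were chosen by gene symbol, with no measured value in the rule. All 10 were found in every count table. IMR90 are fibroblasts of the fetal human lung, which the study describes as primary cells. Factory RNA-Seq is meant to sample RNA attached to transcription factories, which is still being made. The labels also give poly(A) selection, and the counts are on exons, so how much of the signal is nascent and how much mature RNA was not tested. It was run on untreated low-passage cells (labelled young and called control below), on cells treated for 3 or 6 days with ICM (inflachromene, a small molecule that binds HMGB1 and HMGB2), and on cells labelled MetaICM, with 2 libraries per condition. The labels give no dose and no vehicle for the control, and they do not say how MetaICM differs from ICM or how long it lasted. They also do not say whether the 2 libraries of a condition came from separate cultures, so the tests measure the spread between these libraries, which may be technical. All libraries come from IMR90 cells only.

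In the intrinsic pathway of apoptosis, the survival members (BCL2, BCL2L1, BCL2L2 and MCL1) hold the pore-forming members BAX and BAK1 in check. The BH3-only members (BCL2L11, BMF, PMAIP1 and BBC3) are sensors of stress that bind survival members or engage BAX and BAK1 directly. Once active, BAX and BAK1 open the outer membrane, cytochrome c escapes and caspases are switched on. Senescent fibroblasts are known for resisting apoptosis and for leaning on survival members, which is why compounds that block those proteins are used against them. BAX, PMAIP1 and BBC3 are known targets of p53.

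The 8 libraries held 12095123 to 23166405 counted read pairs on exons. All 8 fibroblast markers were detected above 1 CPM (counts scaled to the size of the library), with summed levels of 21863 to 22424 CPM in control, 12189 to 13895 CPM after 3 days, 10586 to 10915 CPM after 6 days and 19379 to 20399 CPM in MetaICM. Markers of other cell types also differed between conditions. The epithelial, endothelial and leukocyte lists were low, each with 1 gene above 1 CPM on average (KRT19, VWF and CD68). Their sums thus rest mostly on single genes. The smooth muscle list was not low. The 5 epithelial markers summed to 4.10 to 5.77 CPM in control, 0.60 to 1.40 after 3 days, 0.81 to 0.90 after 6 days and 7.91 to 7.94 in MetaICM. The 4 endothelial markers summed to 2.62 to 3.63, 4.00 to 4.32, 4.69 to 4.99 and 1.79 to 2.48 CPM in the same order. The 5 leukocyte markers, with CD3E at 0, summed to 4.51 to 6.19, 16.8 to 21.6, 18.005 to 20.9 and 13.2 to 13.5 CPM, and CD68 among them was called higher than control in all 3 comparisons. The 4 smooth muscle markers summed to 551 to 638 CPM in control, 100.4 to 108 CPM after 3 days, 86.0 to 97.1 CPM after 6 days and 364 to 397 CPM in MetaICM. The 5 markers of dividing cells summed to 1566 to 1638 CPM in control, 98.6 to 114.7 CPM after 3 days, 74.3 to 78.1 CPM after 6 days and 837 to 842 CPM in MetaICM. Many of these markers differed between the conditions compared below. Between 6 and 3 days, only COL1A1 and MKI67 among them were called. The part of the markers in the results for the family was not tested. As the libraries are from bulk cultures, fewer cells that express a gene and less RNA per cell cannot be told apart.

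Promoter sequences are shown for the 4 members with the largest differences from control, as a view of the DNA from which their RNA starts. RefSeq promoters (GRCh38.p14, from 250 bases before to 50 after the start) were found for 8 of the 10 members; BCL2L2 and MCL1 had none. The motifs searched on both strands were the E-box with the letters CACGTG, the forkhead motif with GTAAACA, the CCAAT box with these letters, the TATA box with TATAAA, the GC box with GGGCGG and a p53 element. Capitals mark matches to the first 4 of these, and none of those matches overlapped in the windows shown. The motifs were picked after the promoters had been seen, and a match is a description of letters, not of a bound site. The windows are BAX at chr19:48954625-48954924 on the plus strand, BCL2L11 at chr2:111120664-111120963 on the plus strand, BMF at chr15:40108830-40109129 on the minus strand and BCL2 at chr18:63319720-63320019 on the minus strand.
BAX promoter: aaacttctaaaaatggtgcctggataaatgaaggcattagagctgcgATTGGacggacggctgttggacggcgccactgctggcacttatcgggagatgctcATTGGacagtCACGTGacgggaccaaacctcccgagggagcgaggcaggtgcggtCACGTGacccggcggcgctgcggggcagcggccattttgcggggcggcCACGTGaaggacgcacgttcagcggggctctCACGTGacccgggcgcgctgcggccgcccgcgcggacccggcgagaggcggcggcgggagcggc
BCL2L11 promoter: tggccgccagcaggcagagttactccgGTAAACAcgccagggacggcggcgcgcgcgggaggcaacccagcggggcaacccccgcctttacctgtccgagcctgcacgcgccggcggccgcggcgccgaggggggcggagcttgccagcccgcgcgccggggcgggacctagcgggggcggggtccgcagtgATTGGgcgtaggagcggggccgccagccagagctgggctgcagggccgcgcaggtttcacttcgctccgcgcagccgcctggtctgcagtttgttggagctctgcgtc
BMF promoter: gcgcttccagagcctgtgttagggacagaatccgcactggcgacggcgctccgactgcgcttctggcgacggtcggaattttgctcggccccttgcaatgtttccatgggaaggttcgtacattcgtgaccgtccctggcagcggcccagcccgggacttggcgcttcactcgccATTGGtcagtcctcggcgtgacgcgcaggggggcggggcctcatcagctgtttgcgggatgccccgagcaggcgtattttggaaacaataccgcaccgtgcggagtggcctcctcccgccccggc
BCL2 promoter: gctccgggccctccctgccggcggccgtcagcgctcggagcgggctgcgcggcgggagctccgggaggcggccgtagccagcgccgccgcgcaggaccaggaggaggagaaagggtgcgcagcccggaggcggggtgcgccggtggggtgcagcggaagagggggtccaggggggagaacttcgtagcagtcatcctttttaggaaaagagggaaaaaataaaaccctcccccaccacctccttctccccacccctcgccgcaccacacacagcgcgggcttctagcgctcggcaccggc

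The BAX promoter held 4 E-boxes, which begin at positions −138, −93, −45 and −14 from the start site, and 2 CCAAT boxes. Of 35116 RefSeq promoters, 7.256% held at least 1 E-box and 0.01424% held 4 or more. The cut-off of 4 is the number found for BAX, which is itself among those promoters, so this share is a description and no test. The BCL2L11 promoter held the forkhead motif at position −223, found in 3.423% of promoters, and a CCAAT box at −58, found in 34.61%. The BMF window shown held a CCAAT box at −75. Another RefSeq window of BMF, at chr15:40106917-40107216 on the minus strand, is not shown. Its start site lies 1913 bases after the gene start in the count tables. It held none of the motifs and had a GC content of 50.3%. The GC box, present in 44.95% of promoters, was found 2 times for BAX, 3 times for BCL2L11 and 2 times for BMF, and is left in lower case. The p53 element, present in 0.02848% of promoters, was in none of the windows found for members, which says only that these letters are not in them. The BCL2 window, whose start site lies at −389 bases from the gene start in the count tables, which is upstream of it, held none of the motifs. A TATA box, present in 11.53% of promoters, was found in none of the 4 windows shown. GC content was 67.3% for BAX, 74.7% for BCL2L11, 65.0% for BMF and 70.7% for BCL2.

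In control cells, transcript levels per kilobase of exon were led by a survival member. MCL1, which encodes a short-lived guard of the outer membrane, stood at 58.8 ± 4.85 CPM per kb (SD, n = 2), and PMAIP1, the BH3-only partner known for binding MCL1, followed at 13.7 ± 4.07 CPM per kb. BAX had 12.6 ± 2.39 CPM per kb, and its libraries overlapped those of PMAIP1. BCL2L2 came next with 9.62 ± 0.41 CPM per kb. BCL2L1 had 5.40 ± 0.65 and BAK1 4.78 ± 1.31 CPM per kb, and these neighbours overlapped. BBC3 at 2.08 ± 0.34 and BCL2L11 at 2.08 ± 0.27 CPM per kb also overlapped. BMF had 1.75 ± 0.15 CPM per kb, and BCL2 was lowest at 0.59 ± 0.17 CPM per kb. MCL1 stayed first in all 4 conditions, at 52.4 ± 9.23 CPM per kb after 3 days, 54.3 ± 3.18 after 6 days and 62.8 ± 8.71 in MetaICM. BAX moved to second place in the treated conditions, with 38.4 ± 3.85, 35.2 ± 4.49 and 30.4 ± 1.14 CPM per kb. BCL2 stayed last after 3 and 6 days (0.13 ± 0.04 and 0.16 ± 0.02 CPM per kb), while in MetaICM BCL2L11 was last at 0.49 ± 0.08 CPM per kb, below BCL2 at 0.66 ± 0.05.

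Levels per kilobase used only exon bases that no other gene shares, because read pairs on several genes were not counted. BCL2L1 shares 1029 of its 3050 exon bases with ABALON on the opposite strand, and BCL2L2 shares 590 of 3658 with the readthrough gene BCL2L2-PABPN1. Strand was not used in the counting, so for these genes reads near the overlap cannot be assigned with certainty. MCL1 shares 2 bases with ADAMTSL4-AS1, and the other 7 members share none.

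**Figure D1:**
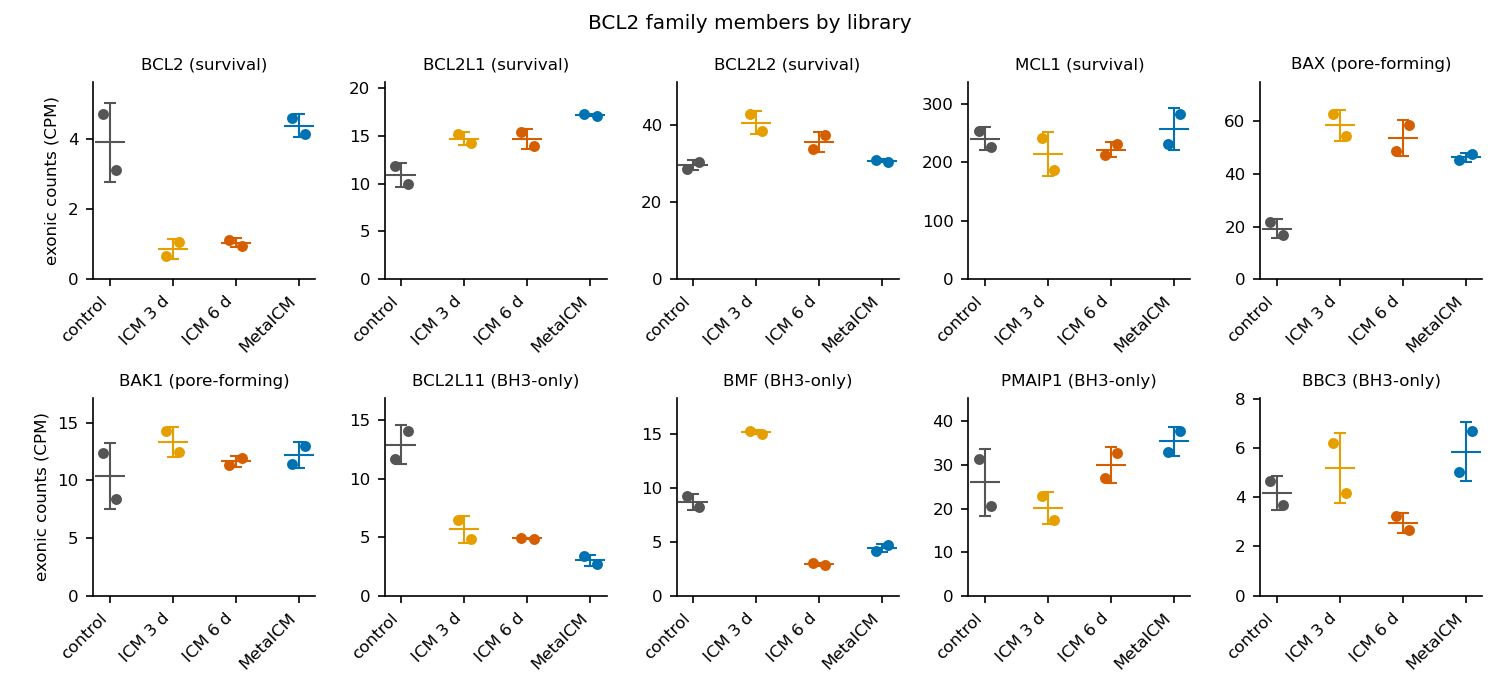
Exonic read pairs in CPM (vertical axis from 0) of each member in the 8 libraries, by condition; points are libraries, and the bar and whiskers are the mean and SD of 2 libraries. BAX was above control in all treated libraries, BCL2L11 was below it in all of them, BMF was above control at 3 days and below it at 6 days, and BCL2 was low only in the 3-day and 6-day libraries.

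The first question was how the family differed from control after 3 days of ICM. BAX and BMF were upregulated, and BCL2 and BCL2L11 were downregulated, so that death-promoting genes moved in both directions. A gene was called when the adjusted p was under 0.05 (quasi-likelihood test in edgeR, Benjamini-Hochberg over all genes tested) and the absolute log2FC was over 0.6. Of the 15692 genes tested, 8.85% were called higher and 13.2% lower. Counts of 2 higher and 2 lower among 10 members lie near these shares, so the counts alone say nothing particular about the family.

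BAX (chromosome 19 of hg19, from 49458117 to 49465055) had 21.8 and 16.6 CPM in control cells, and 3 days of ICM gave 62.7 and 54.4 CPM. Both treated libraries lay well above both controls. The log2FC was 1.59 (SE 0.16, adjusted p = 1.51e-05), a fold of 3.02. BAK1, its partner in pore formation, had 12.4 and 8.36 CPM in control and 14.3 and 12.4 CPM after 3 days. Its groups were nearly touching, and its log2FC of 0.35 (SE 0.21, adjusted p = 0.239) did not pass the test. Without the first control library, BAK1 was called at a log2FC of 0.67.

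Among the survival members, BCL2 (chromosome 18, from 60790579 to 60986613), the founding member of the family, had 4.70 and 3.11 CPM in control and 0.65 and 1.06 CPM after 3 days. The values rest on 79 and 38 read pairs in control and on 14 and 16 after treatment, so counting error is large. Its log2FC was −2.24 (SE 0.38, adjusted p = 0.000843), with no overlap between groups. BCL2L1 (chromosome 20, from 30252255 to 30311766), which encodes BCL-XL, had 11.8 and 9.995 CPM in control and 15.2 and 14.3 CPM after 3 days, with a log2FC of 0.42 (SE 0.18, adjusted p = 0.0996). BCL2L2, which encodes BCL-W, had 28.6 and 30.4 CPM in control and 42.6 and 38.4 CPM after 3 days. Both of these had treated libraries above both controls. BCL2L2 passed the p threshold but not that of size, with a log2FC of 0.45 (SE 0.14, adjusted p = 0.0330). MCL1 overlapped between groups, with 254 and 226 CPM in control and 241 and 188 CPM after 3 days (log2FC −0.17, SE 0.14, adjusted p = 0.382).

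Among the BH3-only members, BCL2L11 (chromosome 2, from 111878491 to 111926022), which encodes BIM, had 11.7 and 14.1 CPM in control and 6.51 and 4.85 CPM after 3 days. Its log2FC was −1.18 (SE 0.22, adjusted p = 0.00197), with both treated libraries under both controls. BMF (chromosome 15, from 40380091 to 40401080), a sensor tied to the cytoskeleton, had 9.23 and 8.19 CPM in control and 15.3 and 15.0 CPM after 3 days. Its log2FC was 0.79 (SE 0.18, adjusted p = 0.00682), and the call was lost without the first 3-day library, at a log2FC of 0.78. PMAIP1, which encodes NOXA, had 31.5 and 20.6 CPM in control and 22.8 and 17.5 CPM after 3 days. The groups overlapped and the log2FC of −0.38 (SE 0.20, adjusted p = 0.185) did not pass the test; without the second control library it was called at −0.66. BBC3 (chromosome 19, from 47724081 to 47735924), which encodes PUMA, had 4.64 and 3.69 CPM in control and 6.18 and 4.19 CPM after 3 days, with overlap (log2FC 0.31, SE 0.27, adjusted p = 0.425).

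After 6 days of ICM, BAX was again higher than control and BCL2 and BCL2L11 were again lower, whereas BMF was now lower. Of 15950 genes tested, 13.3% were called higher and 17.2% lower, and the members had 1 call higher and 3 lower. BAX had 48.8 and 58.5 CPM, and its log2FC against control was 1.46 (SE 0.16, adjusted p = 5.13e-05). BCL2 had 1.13 and 0.96 CPM, from 21 and 18 read pairs, with a log2FC of −1.93 (SE 0.32, adjusted p = 0.000929). BCL2L11 had 4.90 and 4.89 CPM, with a log2FC of −1.41 (SE 0.19, adjusted p = 0.000241). In none of these did the 6-day and control libraries overlap.

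BMF had 3.02 and 2.81 CPM after 6 days, under both controls, and its log2FC was −1.59 (SE 0.21, adjusted p = 0.000212). BBC3 had 3.23 and 2.66 CPM, also under both controls, but its log2FC of −0.52 (SE 0.25, adjusted p = 0.122) did not pass the test. Without the second control library it was called at −0.66. PMAIP1 had 27.0 and 32.8 CPM, overlapping with control (log2FC 0.18, SE 0.19, adjusted p = 0.473). BAK1 had 11.3 and 11.95 CPM, within the control range (log2FC 0.14, SE 0.20, adjusted p = 0.598).

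The remaining survival members did not pass the test at 6 days. BCL2L1 had 15.5 and 13.97 CPM, with a log2FC of 0.41 (SE 0.16, adjusted p = 0.0660). BCL2L2 had 33.8 and 37.3 CPM, with a log2FC of 0.26 (SE 0.13, adjusted p = 0.140). Both had treated libraries above both controls. MCL1 had 212 and 231 CPM, overlapping with control (log2FC −0.13, SE 0.11, adjusted p = 0.384).

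In MetaICM, BAX was higher than control and BCL2L11 and BMF were lower, as after 6 days of ICM, but BCL2 was near its control level and BCL2L1 was called higher. Of 15904 genes tested, 7.41% were called higher and 8.99% lower, and the members had 2 calls in each direction. BAX had 45.2 and 47.7 CPM, with a log2FC of 1.25 (SE 0.14, adjusted p = 0.000439). BCL2 had 4.61 and 4.15 CPM, inside the control range, with a log2FC of 0.13 (SE 0.25, adjusted p = 0.734). BCL2L1 had 17.3 and 17.1 CPM, above both controls, with a log2FC of 0.63 (SE 0.15, adjusted p = 0.0137). That value lies just over the threshold, and the call was lost without the second control library (log2FC 0.53) and without either MetaICM library (0.65 and 0.66).

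BCL2L11 had 3.37 and 2.71 CPM in MetaICM, with a log2FC of −2.10 (SE 0.21, adjusted p = 0.000194). BMF had 4.17 and 4.72 CPM, with a log2FC of −0.99 (SE 0.19, adjusted p = 0.00568), and without the first MetaICM library it was −0.88 and not called. Both genes lay under both controls. PMAIP1 had 33.0 and 37.8 CPM (log2FC 0.42, SE 0.18, adjusted p = 0.104). BBC3 had 5.01 and 6.69 CPM (log2FC 0.46, SE 0.23, adjusted p = 0.162). Both lay above both controls without passing the test, and without the first control library they were called at 0.77 and 0.65. BAK1 (11.4 and 12.99 CPM, log2FC 0.21, adjusted p = 0.460), MCL1 (231 and 282 CPM, log2FC 0.08, adjusted p = 0.669) and BCL2L2 (30.9 and 30.3 CPM, log2FC 0.04, adjusted p = 0.844) overlapped with control.

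**Figure D2:**
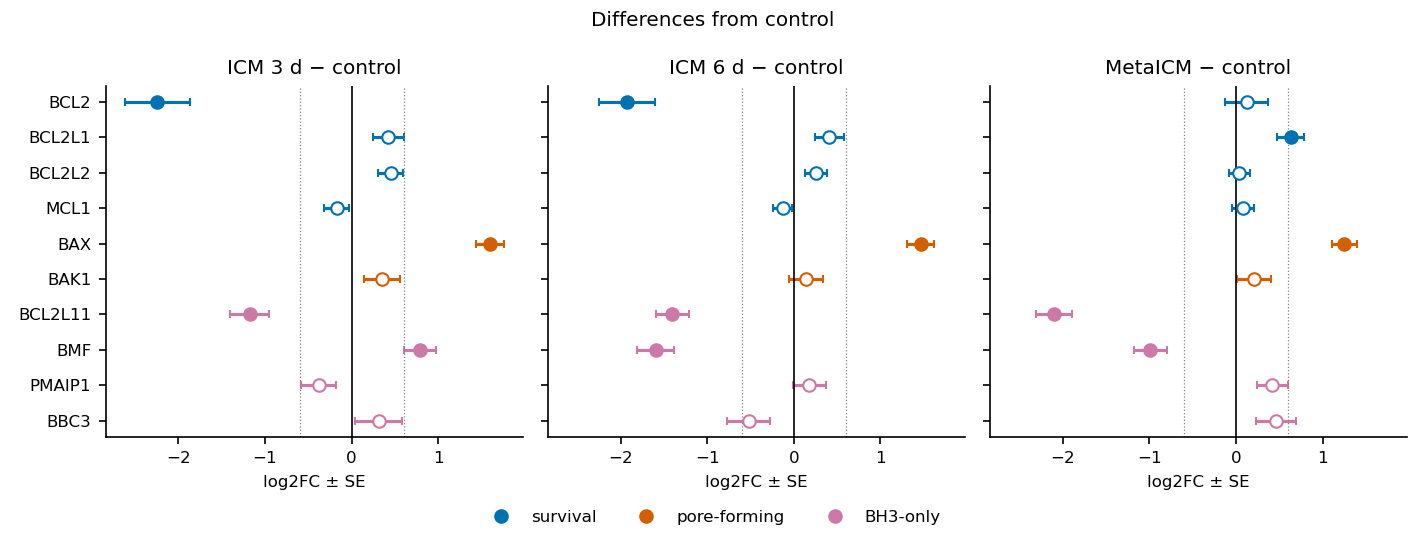
Log2FC against control (horizontal axis; whiskers are the standard error from edgeR) of the 10 members after 3 days of ICM, 6 days of ICM and in MetaICM, coloured by role; filled points were called, open points were not, and dotted lines mark a log2FC of 0.6 in either direction. BAX was at 1.59, 1.46 and 1.25 and BCL2L11 at −1.18, −1.41 and −2.10, while BMF changed sign between 3 days and 6 days.

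These 3 comparisons share the same 2 control libraries, so their values do not count as independent of each other. By role, each comparison called 1 of 4 survival members (BCL2 after 3 and 6 days, BCL2L1 in MetaICM). Of the 6 death-promoting members, each called 3 (BAX, BCL2L11 and BMF). Over all genes tested, 8.85% were called higher and 13.2% lower after 3 days, 13.3% and 17.2% after 6 days, and 7.41% and 8.99% in MetaICM. Lists of 4 and 6 genes are too small for a contrast between roles. The survival members had a median log2FC of 0.12, 0.06 and 0.10 in the 3 comparisons, and the death-promoting members one of 0.33, −0.19 and 0.31. The median over all genes tested was 0.0094, −0.0013 and −0.0011. The medians move with single libraries, and the 3-day median of the death-promoting members lay between 0.12 and 0.58 when a library was left out.

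The direct comparison of 6 with 3 days of ICM asked which members differed between the time points. BMF had the largest log2FC of the 10. It was lower at 6 days, with 3.02 and 2.81 CPM against 15.3 and 15.0 CPM, a 5.22-fold difference. Its log2FC was −2.38 (SE 0.18, adjusted p = 2.62e-08), and it stayed between −2.42 and −2.34 with any library left out. Of 15845 genes tested, 3.53% were called higher and 4.54% lower.

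BBC3 was also called lower at 6 days, with 3.23 and 2.66 CPM against 6.18 and 4.19 CPM (log2FC −0.84, SE 0.24, adjusted p = 0.0204). That call did not hold in DESeq2 (adjusted p = 0.0804, with 0.00324 to 0.0804 over all alternatives), nor without the first 3-day library (log2FC −0.53) or the second 6-day library (−0.71). PMAIP1 had 27.0 and 32.8 CPM at 6 days against 22.8 and 17.5 CPM at 3 days, without overlap. Its log2FC of 0.55 (SE 0.14, adjusted p = 0.00689) fell short of the size threshold, and without the first 3-day library it was 0.75 and called, as it was at 0.71 without the first 6-day library. None of the 4 survival and 2 pore-forming members was called by edgeR or DESeq2, and none had an unadjusted p under 0.05. BAX had a log2FC of −0.13 (SE 0.11, adjusted p = 0.430) and BCL2 one of 0.32 (SE 0.42, adjusted p = 0.647).

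MetaICM was then compared with 6 days of ICM, a pair whose difference in treatment the labels do not spell out. BCL2, BBC3 and BMF were higher in MetaICM and BCL2L11 was lower, where 15.7% of 16036 genes were called higher and 12% lower. BCL2 had 4.61 and 4.15 CPM against 1.13 and 0.96 CPM, without overlap, and a log2FC of 2.06 (SE 0.26, adjusted p = 1.15e-06). This is a 4.16-fold difference, from 93 and 95 read pairs against 21 and 18. BBC3 had 5.01 and 6.69 CPM against 3.23 and 2.66 CPM, with a log2FC of 0.99 (SE 0.21, adjusted p = 0.000448). Both calls held under every alternative run.

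The calls of BMF and BCL2L11 between MetaICM and 6 days were weaker. BMF had 4.17 and 4.72 CPM against 3.02 and 2.81 CPM, with a log2FC of 0.61 (SE 0.21, adjusted p = 0.0186) that lies on the threshold. It was not called by DESeq2 (adjusted p = 0.121, with 0.0136 to 0.121 over all alternatives), with library totals (log2FC 0.59), or without the second 6-day (0.56) or second MetaICM library (0.52). BCL2L11 had 3.37 and 2.71 CPM against 4.90 and 4.89 CPM, with a log2FC of −0.70 (SE 0.21, adjusted p = 0.00720). It was not called by DESeq2 (adjusted p = 0.0556, with 0.00296 to 0.0556 over all alternatives) or without the second MetaICM library (log2FC −0.53).

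The other members differed by less between MetaICM and 6 days. BAX (log2FC −0.21, adjusted p = 0.0473), BCL2L2 (−0.22, adjusted p = 0.0401), MCL1 (0.21, adjusted p = 0.0446) and PMAIP1 (0.24, adjusted p = 0.0475) passed the p threshold but not that of size. BCL2L1 (0.22, adjusted p = 0.105) and BAK1 (0.07, adjusted p = 0.688) passed neither.

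**Figure D3:**
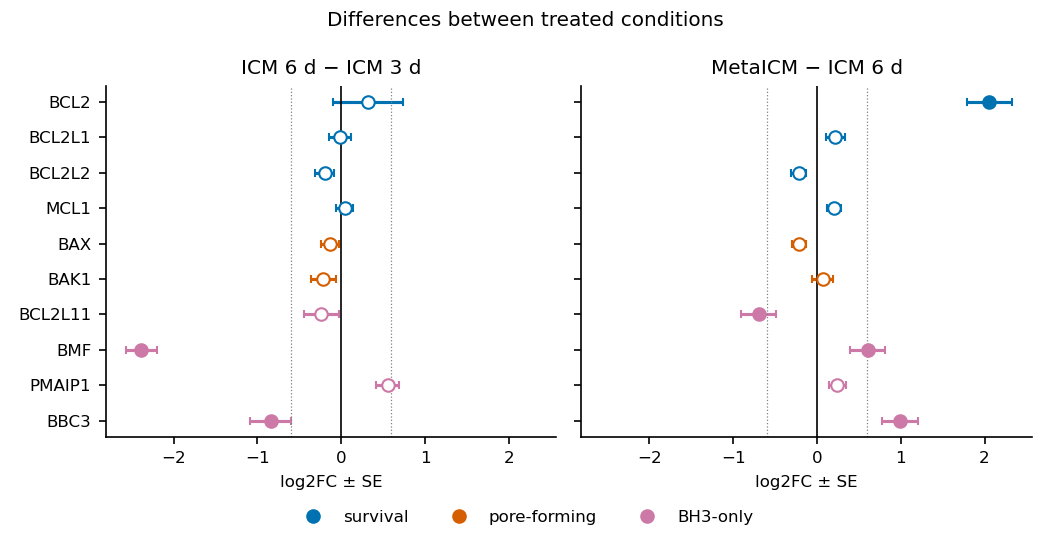
Log2FC (horizontal axis; whiskers are the standard error from edgeR) of the 10 members between 6 and 3 days of ICM and between MetaICM and 6 days of ICM; filled points were called and dotted lines mark a log2FC of 0.6 in either direction. BMF stands apart on the left panel at −2.38, and BCL2 on the right panel at 2.06.

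Set against each other within a library, BAX and BCL2 changed their proportion. The ratio of BAX to BCL2 CPM was 4.63 and 5.34 in control, 96.3 and 51.1 after 3 days, 43.2 and 61.2 after 6 days, and 9.80 and 11.5 in MetaICM. The 3-day and 6-day libraries lay above the MetaICM libraries, and these lay above control. Since BCL2 has few reads after 3 and 6 days, these ratios are imprecise. They and the sums that follow were chosen after the values had been seen and are a description without a test.

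The summed level of the 6 death-promoting members was 42.6 and 31.3 CPM per kb in control, 66.9 and 56.5 after 3 days, 54.5 and 63.9 after 6 days, and 56.2 and 61.9 in MetaICM. All treated libraries exceeded both controls. BAX made up 33.5% and 34.8% of that sum in control and between 50.5% and 63.1% in the treated libraries. The 4 BH3-only members made up 53.1% and 52.9% in control and between 26.7% and 39.8% in the treated libraries. Of the 6 members, only BAX was called higher in every comparison with control, and BCL2L11 was called lower in each. The sum thus does not describe a rise shared by the 6 members. The summed level of the 4 survival members overlapped between conditions, with 78.2 and 70.7 CPM per kb in control, 80.5 and 65.7 after 3 days, 70.9 and 75.7 after 6 days, and 76.0 and 88.0 in MetaICM. MCL1 made up 69.9% to 79.7% of it. Death-promoting over survival sums gave 0.55 and 0.44 in control, 0.83 and 0.86 after 3 days, 0.77 and 0.84 after 6 days, and 0.74 and 0.70 in MetaICM.

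**Figure D4:**
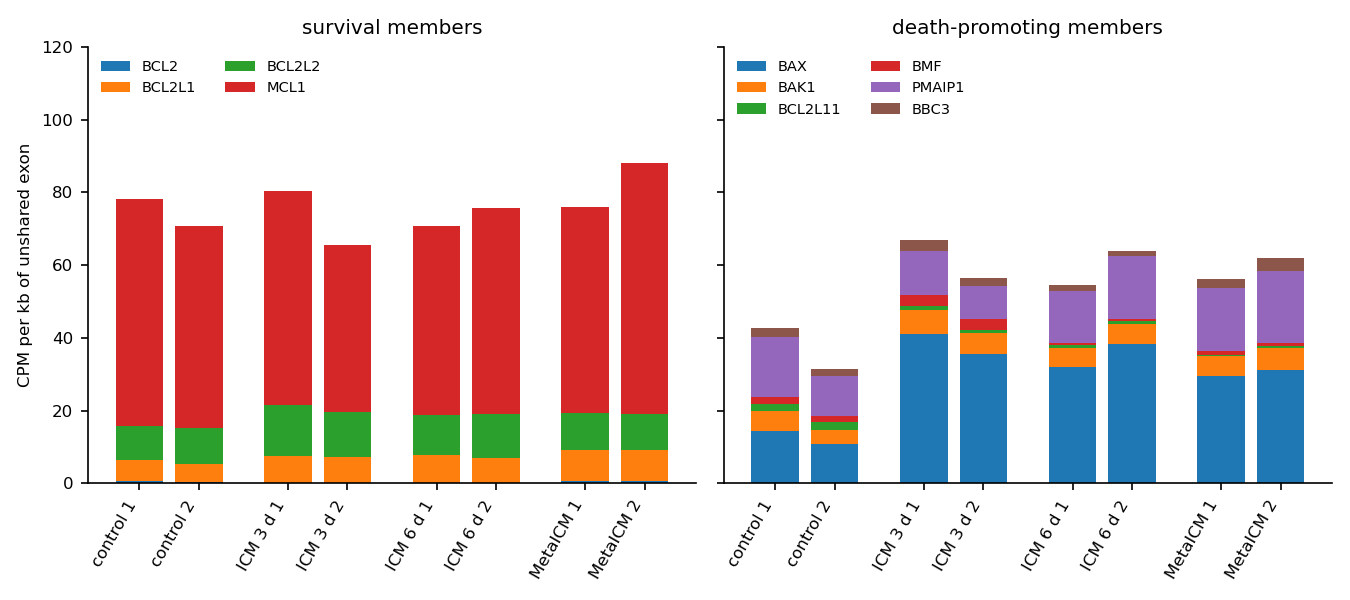
Stacked levels in CPM per kilobase of unshared exon (vertical axis from 0) of the survival members (left) and the death-promoting members (right) in each of the 8 libraries. MCL1 makes up 69.9% to 79.7% of every left bar, and the BAX segment grows from 33.5% and 34.8% of the right bar in control to at least 50.5% in the treated libraries.

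Of the 11 other genes of the family on the list, 7 or 8 had enough counts to be tested, depending on the comparison. BOK, a relative of BAX and BAK1, was called lower than control after 3 days (log2FC −0.99, SE 0.18, adjusted p = 0.00131) and 6 days (−1.56, SE 0.16, adjusted p = 3.56e-05), and higher in MetaICM than after 6 days (1.66, SE 0.12, adjusted p = 2.70e-10). It had 22.6 and 20.9 CPM in control, 12.3 and 9.70 CPM after 3 days, 8.02 and 6.90 CPM after 6 days, and 24.6 and 22.8 CPM in MetaICM. Of its exon bases, 217 are shared with an antisense gene, so part of its signal is uncertain. BAD, a BH3-only gene, was called higher in MetaICM than in control (log2FC 0.90, SE 0.18, adjusted p = 0.00659), but not without the second MetaICM library (0.81). It shares 128 exon bases with a gene on the opposite strand. BCL2L13 passed the p threshold but not that of size after 3 days, after 6 days and in MetaICM, with log2FC of 0.51, 0.42 and 0.42 against control. BID, BIK, BCL2L12, BCL2L13, BCL2L14 and BCL2L15 were called in none of the comparisons in which they were tested.

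Upstream of the family, 9 of the 10 genes listed for p53 and its regulators were tested. Against control, 2 were called higher after 3 days, 3 higher and 1 lower after 6 days, and 1 higher in MetaICM, where the shares over all genes were 8.85%, 13.3% and 17.2%, and 7.41%. CDKN1A, the p21 gene and a target of p53, was called higher than control after 3 days (log2FC 2.63, SE 0.18, adjusted p = 5.39e-07), after 6 days (2.77, SE 0.16, adjusted p = 6.45e-07) and in MetaICM (1.69, SE 0.16, adjusted p = 0.000133). MDM2, the ubiquitin ligase that p53 induces and that restrains it, was called higher after 3 days (1.54, SE 0.14, adjusted p = 5.44e-06) and 6 days (1.68, SE 0.13, adjusted p = 4.01e-06). Both were lower in MetaICM than after 6 days, with log2FC of −1.08 and −1.35. CDKN1A shares 238 exon bases with an antisense gene. Among the p53 targets named so far, BAX, CDKN1A and MDM2 were called higher at both time points. PMAIP1 and BBC3 were not called against control at either. Other genes on the lists were not sorted by whether p53 targets them, so this is no tally of p53 targets. After 6 days TP53BP1 was called higher (0.64) and MDM4 lower (−0.68), MDM4 not without the second control library (−0.40). TP53BP1 shares 3067 exon bases with a gene on the opposite strand.

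Among the death receptors and their adaptors, which start the extrinsic pathway, 4 of 10 genes tested were called higher than control after 3 days, 5 of 11 after 6 days and 2 of 11 in MetaICM. Over all genes these shares were 8.85%, 13.3% and 7.41%. TNFRSF10D, a decoy receptor for TRAIL, had a log2FC of 1.67, 1.97 and 0.93 in these comparisons. TNFRSF10C (1.81 and 1.46) and the death receptor TNFRSF10A (1.15 and 0.96) were called after 3 and 6 days, and FADD, the adaptor of death receptors, in MetaICM (0.70). The call of TNFRSF10C was lost after 3 days without the first 3-day library (1.49), and after 6 days without the second control library (0.89), without either 6-day library (1.51 and 1.44) and with all genes kept (1.48); it also shares exon bases with another gene on its strand. TNFRSF10A was not called at 6 days without the first 6-day library (0.89), and FADD not without the second control (0.57) or either MetaICM library (0.72 and 0.74). In MetaICM against 6 days, TNFRSF10D (−1.04) and CFLAR (−0.67), an inhibitor of caspase activation at the receptor, were lower.

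Downstream, 9 genes of the caspases and the apoptosome were tested. CASP2 was called lower than control after 3 days (log2FC −0.69) and 6 days (−1.32), lower at 6 than at 3 days (−0.63), and higher in MetaICM than after 6 days (0.74). Without the second control (−0.47) or the second 3-day library (−0.63) the 3-day call was lost, and without the first 3-day (−0.58) or first 6-day library (−0.56) the one between time points. No gene of this list was called in MetaICM against control by edgeR or DESeq2. CASP2 had 19.9 CPM there against 29.5 CPM in control on average, without overlap. Its log2FC of −0.58 (adjusted p = 0.0237 in edgeR) passed the p threshold but not that of size. It was the 1 gene of 9 with an unadjusted p under 0.05, a count given without the share of all genes.

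Of 8 inhibitors of apoptosis and their antagonists tested, 2 were called lower than control after 3 days, 2 after 6 days and 1 in MetaICM. Over all genes 13.2%, 17.2% and 8.99% were called lower, so these counts lie near the background. BIRC5, which encodes survivin and is a gene of dividing cells, fell most. Its log2FC was −3.72 after 3 days and −4.13 after 6 days, and it was higher in MetaICM than after 6 days by 4.09. BIRC3, a target of NF-κB, had −2.97, −3.25 and 2.601 in the same comparisons. It had 12 and 16 read pairs after 3 days and 12 and 12 after 6 days. BIRC5 had 32 and 15 after 3 days and 18 and 18 after 6 days, so counting error is large for both. The summed markers of dividing cells, as given above, fell with BIRC5 after 3 and 6 days. In MetaICM they were higher than after 6 days but under control, whereas BIRC5 had 16.4 CPM against 16.8 CPM in control (log2FC −0.045, not called); their part in it was not tested. NAIP, whose near-identical copies make its counts uncertain, was called lower in MetaICM than in control at −1.26, but not by DESeq2 or without the second MetaICM library (−0.88). Between 6 and 3 days, none of the other family genes, inhibitors of apoptosis, death receptors and p53 genes was called by edgeR or DESeq2. At an unadjusted p under 0.05 in edgeR there were 1 of 8, 0 of 8, 1 of 10 and 3 of 9 tested. The share of all genes at that unadjusted p is not given, so these counts cannot be set against a background.

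**Figure D5:**
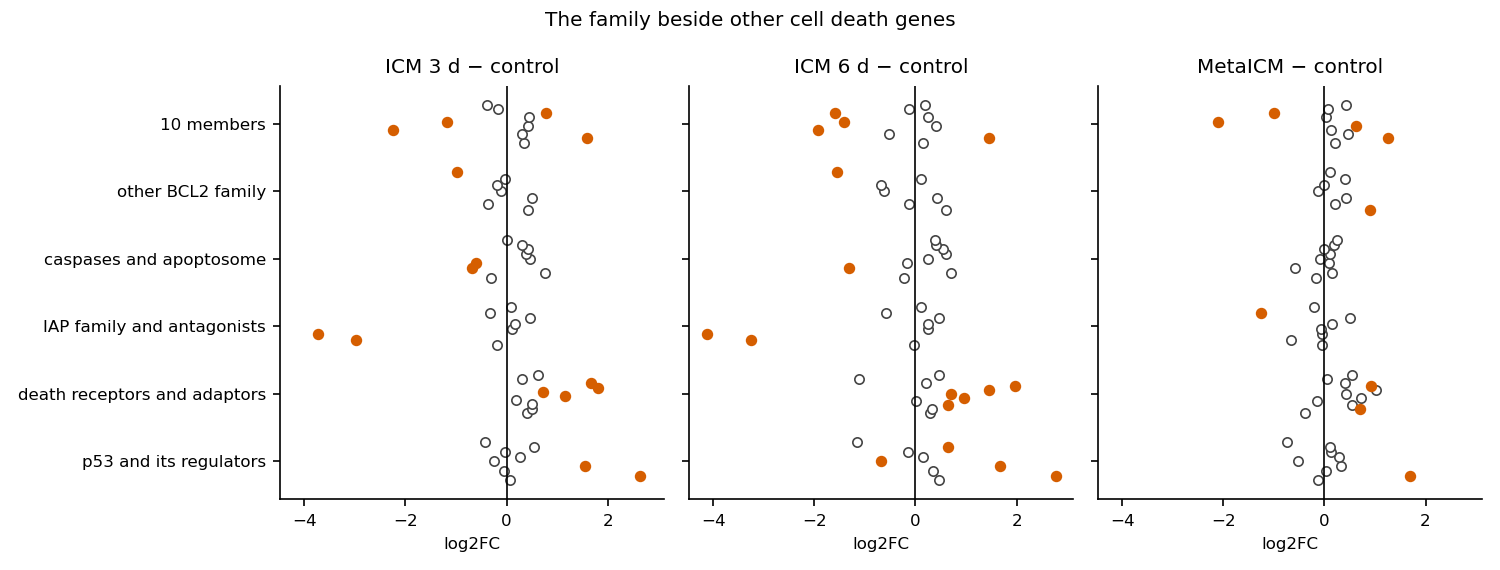
Log2FC against control (horizontal axis) of every tested gene of the 10 members and of 5 other lists of cell death genes, after 3 days of ICM, 6 days of ICM and in MetaICM; each point is a gene, filled where it was called. The points farthest to the left after 3 and 6 days are BIRC5 and BIRC3, and those farthest to the right are CDKN1A.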

How the data were processed

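Factory RNA-Seq libraries of IMR90 cells (2 each of control, ICM for 3 days, ICM for 6 days and MetaICM) were grouped by their labels. Per the labels, the RNA was poly(A)-selected; whether this holds for the factory libraries could not be settled. The authors aligned reads with STAR 2.6.0c to hg19 (GRCh37) and deposited raw counts of read pairs on RefSeq exons from featureCounts 1.6.3. Per the file headers, pairs were counted without strand, with both ends mapped, and pairs on several genes were dropped, which lowers the count of overlapping genes. Intronic reads, on which the study's nascent values rest, were not analysed here.

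CPM were computed with TMM factors over all 8 libraries. Each comparison was a separate fit of 4 libraries in edgeR 4.0.16 (R 4.3.3): filterByExpr with a count minimum of 10, TMM, the quasi-likelihood test and Benjamini-Hochberg adjustment over all genes tested. Calls needed an adjusted p under 0.05 and an absolute log2FC over 0.6. The standard error (SE) is the absolute log2FC divided by the square root of F. RUVs was not run. Alternatives were DESeq2 1.42.0, DESeq2's size factors, library totals, all genes with a count, at least 10 counts in every library, all 8 libraries in one fit, a replicate block, an adjusted p of 0.01 and each library left out. The fits were tested on simulated data. Depth was 12095123 to 23166405 counted pairs per library. Replicates differed by more than sampling noise (chi-square per degree of freedom 5.81 to 24.8).

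The members, the lists and the rule for named genes (all members, the tested family genes, CDKN1A, MDM2 and, from each other list, at most the 3 called genes per direction with the largest log2FC and no overlap between groups) were chosen with earlier results of these data known. A result that this rule would name is not reported here. Figures were drawn with matplotlib 3.10.9.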

Additional observations from a re-analysis of the deposited data

Results flagged for a closer look

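For 6 results, the difference from control was not the same in 2 of the treated conditions by a direct test between those conditions (edgeR, adjusted p as given in the report). Between 6 and 3 days of ICM, the log2FC was −2.38 for BMF and −0.84 for BBC3. Between MetaICM and 6 days of ICM, it was 2.06 for BCL2, 0.99 for BBC3, 0.61 for BMF and −0.70 for BCL2L11. The calls of BBC3 between 6 and 3 days, and of BMF and BCL2L11 between MetaICM and 6 days, are less certain. They were lost in DESeq2 and without some single libraries, as given in the report. BMF is the only member of the 10 that was called in opposite directions against control, at 0.79 after 3 days and −1.59 after 6 days. BBC3 was called in both of these tests but in none of the 3 against control. Groups of 2 libraries are too small to test for an outlying library.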

How the results depend on the processing

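With 2 libraries per condition, calls near a threshold depend on single libraries. Of 350 log2FC of members under the alternatives other than leaving out a library, 346 kept their direction and side of the threshold and 4 lost a call; of 200 with a library left out, 169 kept both, 10 lost a call, 7 gained one and 14 changed sign, all of them of members not called. The cause was not tested. With a library left out, each fit had 3 libraries, and the lone one was assumed to vary like the other condition. At an adjusted p of 0.01, 1 member was higher in MetaICM than in control (in place of 2) and 1 lower at 6 than at 3 days (in place of 2), and by DESeq2 1 was lower at 6 than at 3 days and 0 lower in MetaICM than at 6 days (in place of 1). With libraries left out, members called higher ranged from 1 to 3 at 3 days, 0 to 1 at 6 against 3 days and 1 to 4 in MetaICM against control; members called lower ranged from 1 to 2 at 6 against 3 days, 0 to 1 in MetaICM against 6 days and 1 to 2 in MetaICM against control. The log2FC that changed sign ranged as follows. For BAK1 it ran from −0.090 to 0.45 (6 days against control), −0.026 to 0.17 (MetaICM against 6 days) and −0.025 to 0.53 (MetaICM against control). Against control, BBC3 ran from −0.0030 to 0.56 at 3 days, PMAIP1 from −0.074 to 0.51 at 6 days, and in MetaICM BCL2 from −0.11 to 0.47, BCL2L2 from −0.010 to 0.090 and MCL1 from −0.052 to 0.24. Between 6 and 3 days, BAX ran from −0.27 to 0.0069, BCL2 from −0.048 to 0.68, BCL2L1 from −0.072 to 0.054 and MCL1 from −0.12 to 0.22.

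Whether the replicate numbers pair the samples was not settled, as a low correlation of same-numbered libraries cannot exclude it. Their deviations correlated at 0.17 (control and 3 days), 0.05 (control and 6 days) and 0.08 (3 and 6 days). With MetaICM the values were −0.03 (control), −0.11 (3 days) and 0.02 (6 days). With a replicate block, 2 members were higher and 2 lower at 3 days, 1 and 3 at 6 days, and 2 and 2 in MetaICM, and no call of a member changed. Over all genes at 3 days, 1389 were higher and 2067 lower, with library totals 1785 and 1767, and with a replicate block 1606 and 2309. For MetaICM against control, 1179 were higher and 1430 lower, with 664 and 868 at an adjusted p of 0.01, 469 and 580 without the second MetaICM library, 816 and 807 without the first, and 2116 and 1970 without the first control library. At 3 days, 851 were higher without the first 3-day library. The counts of BCL2 (14 to 21 pairs per library after 3 and 6 days) limit its precision.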
